A study of Mus musculus with 17 samples.

Results

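The 51 genes described here encode assembly factors of the small (40S) ribosomal subunit: the protein subcomplexes of the small-subunit processome, the box C/D snoRNP proteins that work with the U3 snoRNA, and the factors that carry pre-40S particles to maturity. They were taken by symbol from a fixed list. Its rule used no measured value, but earlier results of these data were known when it was chosen. All 51 were found among the 55416 gene IDs that each library reports. The cells were E14Tg2a.4 mouse embryonic stem cells with a FLAG-TEV-AviTag on the ribosomal protein Rpl31, grown in serum with leukemia inhibitory factor. The ALIBi system placed biotin on tagged ribosomes at the endoplasmic reticulum (ER), and RNA bound to the purified ribosomes (ER ribosome-bound RNA) was sequenced beside RNA of the lysate from which they were purified (whole-cell RNA). The siRNAs were scramble, Nmd3 and Gnl3, 1 per culture. The scramble cells, too, carried the tagged Rpl31 and the ALIBi plasmids, and the labels do not say whether the line is a single clone.

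The 17 libraries comprised 3 scramble, 3 Nmd3 and 3 Gnl3 siRNA replicates of whole-cell RNA, and 2 scramble, 3 Nmd3 and 3 Gnl3 siRNA replicates of ER ribosome-bound RNA, labelled as biological replicates. The labels mark 2 of them, whole-cell Nmd3 replicate 2 and whole-cell Gnl3 replicate 3, as outliers that the authors excluded, so 15 libraries were used. They left 2 Nmd3 and 2 Gnl3 whole-cell replicates. Depth was 15.2 to 29.9 M gene counts. Across genes, log2 levels correlated at 0.993 to 0.997 among the 7 whole-cell libraries used and at 0.993 to 0.996 among the 8 ER libraries, and the 2 excluded ones correlated with the 7 at 0.913 to 0.944. In whole-cell RNA, Nmd3 stood at 43.2 to 43.7 counts per M gene counts (CPM) after its own siRNA, against 142 to 154 CPM with the other siRNAs. Gnl3 stood at 54.2 to 70.2 CPM against 256 to 280 CPM. As a check of the ER fraction, 12 ER chaperone mRNAs summed to 5317 to 6253 CPM there and to 2989 to 3205 CPM in whole-cell RNA, and mitochondrial RNA was 0.0204% to 0.0239% of gene counts there and 1.15% to 2.03% in whole-cell RNA. The 10 pluripotency markers summed to 6705 to 7683 CPM in whole-cell RNA and 8 primitive endoderm markers to 74.6 to 87.2 CPM. The 10 fibroblast and feeder markers summed to 232.5 to 290.3 CPM there, mostly from Vim. In scramble whole-cell replicate 1 Vim was at 221 CPM, Thy1 at 13.2, Twist1 at 5.52, Col1a1 at 3.58, Pdgfra at 2.57 and Col1a2 at 0.627 CPM. Col3a1, Postn, Lum and Dcn were at 0 in that library.

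Making a 40S subunit starts in the nucleolus, where the UtpA and UtpB complexes bind the leading spacer of the nascent ribosomal RNA precursor, the U3 box C/D snoRNP base-pairs with it, and the Mpp10 complex and many further factors join to form the processome. Helicases and the GTPase Bms1 then remodel the particle, cleavages release a pre-40S particle, and a smaller set of factors accompanies it to the cytoplasm, where the nuclease Nob1 makes the last cut of 18S rRNA. These proteins act in the nucleolus, nucleus and cytosol, and none is a secretory or membrane protein, the classes whose mRNAs are classically translated at the ER. Nmd3 and Gnl3, the siRNA targets, belong to the other side of the pathway: Nmd3 is the export adapter of the 60S subunit, and Gnl3 (nucleostemin) is a nucleolar GTPase.

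In the genetic code, codons whose middle base is T specify hydrophobic residues, and signal sequences and early membrane segments are runs of such codons. The first 30 codons are printed below for the 3 factors whose ER ratios were lowest for their coding length (results below), for 3 that were higher on ER ribosomes, and for 2 ER chaperones with signal sequences, Hspa5 and Calr. Capitals mark the codons with T in the middle. The sequences are from the GENCODE M21 transcripts (GRCm38), reading the longest coding sequence of each gene.
Utp20: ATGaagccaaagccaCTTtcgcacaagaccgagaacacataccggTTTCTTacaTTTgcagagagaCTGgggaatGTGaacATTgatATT
Bms1: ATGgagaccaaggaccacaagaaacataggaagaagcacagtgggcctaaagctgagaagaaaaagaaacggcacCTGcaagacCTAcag
Nol10: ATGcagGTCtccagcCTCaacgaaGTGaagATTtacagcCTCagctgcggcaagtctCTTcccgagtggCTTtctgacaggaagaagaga
Imp3: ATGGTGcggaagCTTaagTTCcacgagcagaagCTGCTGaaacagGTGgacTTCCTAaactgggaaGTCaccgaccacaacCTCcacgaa
Fbl: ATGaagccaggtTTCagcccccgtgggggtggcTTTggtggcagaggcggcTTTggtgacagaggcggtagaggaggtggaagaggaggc
Nop56: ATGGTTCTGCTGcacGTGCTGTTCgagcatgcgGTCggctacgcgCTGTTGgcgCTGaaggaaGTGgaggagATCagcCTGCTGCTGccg
Hspa5: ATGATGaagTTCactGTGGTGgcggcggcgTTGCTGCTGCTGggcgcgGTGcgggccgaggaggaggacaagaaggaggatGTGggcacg
Calr: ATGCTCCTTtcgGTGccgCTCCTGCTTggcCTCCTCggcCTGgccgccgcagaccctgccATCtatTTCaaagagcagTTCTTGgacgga
In Nol10, Utp20 and Fbl the capitals are scattered among other codons, and in Bms1 only 3 of the 30 codons carry them. In Calr and Hspa5 they crowd together, with up to 9 and 7 of them in some stretch of 12 codons. Nop56 had the most among the factors, 8 in 12, which lies between the values of these chaperones. Imp3 had 11 in its first 30 codons, as many as Hspa5, and up to 6 in 12. Over the 51 genes the median was 7 such codons in the first 30 and 4 in the richest stretch of 12, and no gene had 9 or more. Over 14193 coding genes tested the medians were 8 and 5, and 4.07% had 9 or more in 12. The 12 ER chaperones had medians of 11.5 and 7.5, and only 2 of them (16.7%) had 9 or more in 12. Coding genes with 9 or more in 12 (577 genes) had a median log2 ratio of ER ribosome-bound to whole-cell RNA of 0.52 in scramble cells, and those with 5 or fewer (9631 genes) a median of -0.03. Of the 51 genes, 40 fell in the latter class, with a median of -0.33. The other 11 had 6 to 8 in 12 and a median of -0.23, where the 3985 coding genes of that class had a median of 0.2.

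The ER library of Nmd3 replicate 2 stood apart from the other ER libraries for these genes. It was the highest of the 8 ER libraries for 24 of the 51, whose median length was 868 codons, and the lowest for 3. How often it was highest over all genes was not computed, and it also stood apart for some other genes. ER chaperone mRNAs summed to 6253 CPM in it and to 5317 to 5939 CPM in the other ER libraries. Gnl3 had 262.9 CPM in it and 164.2 and 179.8 CPM in the other Nmd3 ER replicates. Pluripotency markers, at 9735 CPM in it, lay within the 9246 to 10330 CPM of the other ER libraries. Bms1 had 144 CPM in it and 68 to 71.2 CPM in the other 2 Nmd3 ER replicates. Nol10 had 88.1 CPM against 50.3 and 51.2 CPM, Pdcd11 146 CPM against 83.9 and 86.2 CPM, and Tcof1 398 CPM against 274 and 275 CPM. Its log2 ratio to the mean of those replicates correlated with codons at rho = 0.62 across the 51 genes. The whole-cell library of the same number is 1 of the 2 that the authors excluded, and there the relation with length ran the other way: rho was -0.65 for its ratio to the scramble mean.

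**Figure D1:**
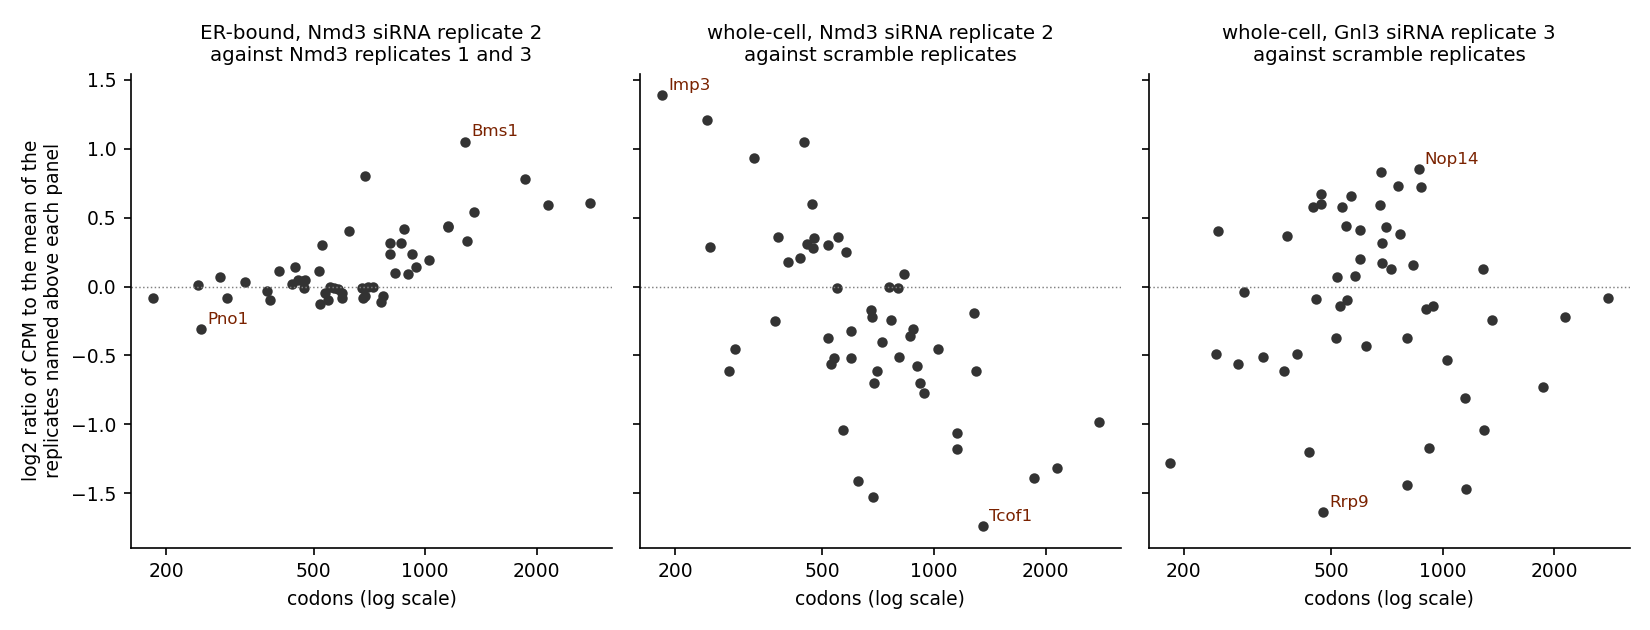
Log2 ratio of CPM (vertical axis) for the 51 genes against codons (horizontal, log scale) in 3 single libraries: ER Nmd3 replicate 2 against the other Nmd3 ER replicates, and the 2 excluded whole-cell libraries against the scramble whole-cell mean. The ratio rises with length in the left panel, up to 1.05 for Bms1, and falls with length in the middle panel, from 1.39 for Imp3 to -1.74 for Tcof1; the right panel runs from -1.64 for Rrp9 to 0.85 for Nop14.

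In scramble cells the 51 mRNAs together took 0.832% to 0.834% of gene counts in whole-cell RNA and 0.676% to 0.678% in ER ribosome-bound RNA. All 51 passed the filter on low counts. With edgeR's quasi-likelihood test and Benjamini-Hochberg adjustment over 18271 genes (called at an adjusted p under 0.05), 32 of the 51 were lower on ER ribosomes, against 25.3% of all genes, 7 were higher, against 25.1%, and 12 were not called. Their median log2 ratio was -0.30, and that of all genes tested was 0.023. The amounts are relative to the total of each library, so less of an mRNA on ER ribosomes and more of other mRNAs there cannot be told apart. The same holds in this bulk RNA for fewer cells with an mRNA and less of it per cell. With Nmd3 siRNA the same comparison called 31 lower and 8 higher (25.6% and 24.5% of all genes), and with Gnl3 siRNA 33 lower and 6 higher (24.9% and 23.3%), each with a median of -0.30. These 3 comparisons share no libraries, although they share 1 estimate of the spread. Called lower in all 3 were 30 genes, called higher in all 3 were 6 (Bysl, Emg1, Fbl, Imp3, Nop56 and Rrp7a), called in none were 9, and 49 had the same sign in all 3. The shares of all genes that did the same were not computed, so whether this agreement is particular to the 51 was not tested. Leaving out ER Nmd3 replicate 2 hardly touched the scramble ratios but narrowed the errors, since the spread is shared: Bms1 was at -1.72 with an SE of 0.06 in place of 0.29, and Utp20 at -2.31 with 0.061 in place of 0.18. It called 42 of the 51 (35 lower, 7 higher), when 9527 of 18166 genes were called in all. In the Nmd3 comparison it called 39 (32 lower, 7 higher), when 8822 of 18166 genes were called in all. Of these 39, 37 were also called with all replicates. Pno1 (-0.12, adjusted p = 0.0922) and Rrp7a (0.11, adjusted p = 0.116) lost their Nmd3 call, and Bms1 went from -1.36 ± 0.27 (SE) to -1.82 ± 0.064, a lower ratio than with all replicates.

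**Figure D2:**
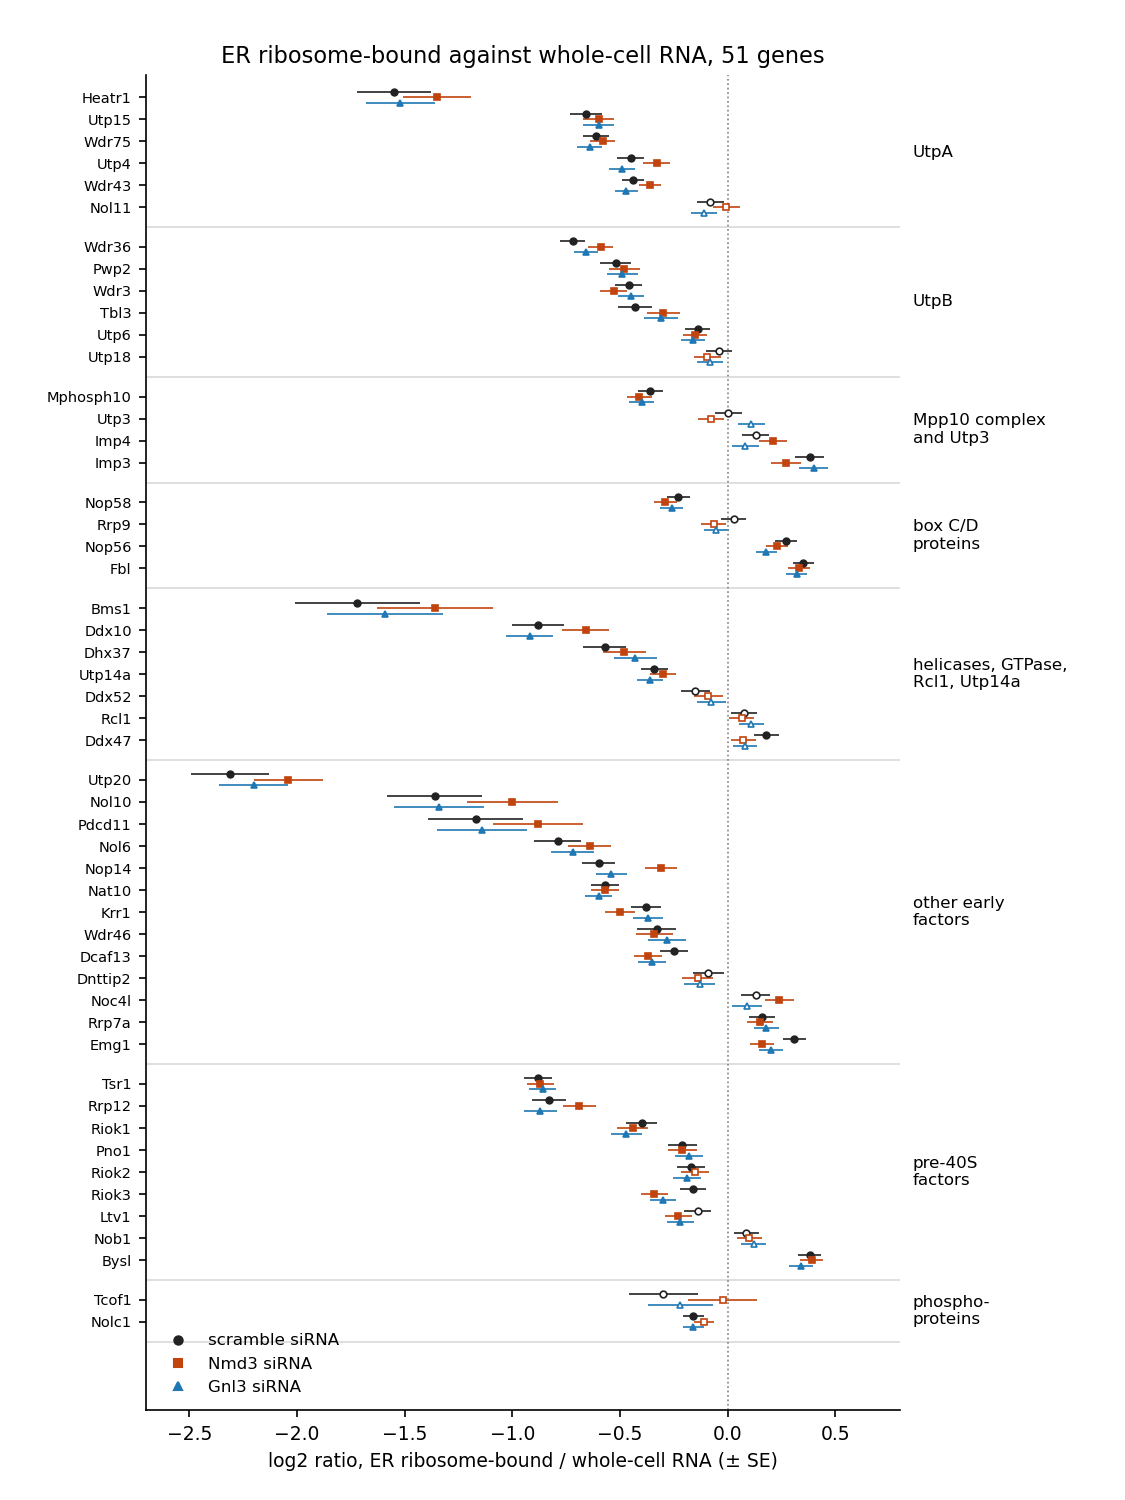
Log2 ratio of ER ribosome-bound to whole-cell RNA (horizontal axis, ± SE) for the 51 genes grouped by role, with scramble (circles), Nmd3 (squares) and Gnl3 (triangles) siRNA; filled symbols passed an adjusted p under 0.05. Utp20 lies furthest left, at -2.31 in scramble cells, and Imp3 furthest right, at 0.40 with Gnl3 siRNA.

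Both complexes that open assembly on the precursor RNA were low on ER ribosomes. In UtpA, which binds the spacer first, 5 of 6 mRNAs were lower in each of the 3 comparisons, with a median of -0.53 in scramble cells. Heatr1, its largest subunit, had 346, 309 and 332 CPM in the scramble whole-cell libraries and 108 and 120 CPM in the ER libraries. The groups did not overlap, and its log2 ratio was -1.55 ± 0.17 (SE, adjusted p = 3.22e-05). Utp15 stood at 98.4 to 103 CPM against 64.4 and 65.4 CPM, and Wdr75 at 188 to 203 CPM against 130 and 133 CPM. The exception was Nol11, at 131 to 134 CPM in whole-cell RNA and 127 and 129 CPM on ER ribosomes, which was called in no comparison (log2 ratio -0.08 ± 0.061, SE, in scramble cells). UtpB, the WD-repeat complex that follows, had 5 of 6 lower in each comparison and a median of -0.44 in scramble cells. Wdr36 had 211, 222 and 211 CPM in whole-cell RNA and 131 and 133 CPM on ER ribosomes, the lowest ratio of the 6 (-0.72 ± 0.058, SE). Utp18 was called in none, at 113 to 122.5 CPM against 115 and 120 CPM.

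The Mpp10 complex split. Mphosph10, its scaffold, was lower (120 to 124 CPM in whole-cell RNA, 95.7 and 98.5 CPM on ER ribosomes, log2 ratio -0.36 ± 0.058, SE). Imp3, a small RNA-binding subunit that helps U3 pair with the precursor, was higher: 50.8, 51.4 and 47.6 CPM in whole-cell RNA and 65.7 and 66.3 CPM on ER ribosomes. Its ratio was 0.38 ± 0.067 (SE, adjusted p = 8.83e-06) in scramble cells, 0.27 with Nmd3 siRNA and 0.40 with Gnl3 siRNA. Imp4 passed the test only with Nmd3 siRNA (0.21 ± 0.064, SE), with 0.13 in scramble and 0.082 in Gnl3 siRNA cells. Utp3, which binds the complex, was called in none.

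The box C/D proteins included 3 of the 5 factors most abundant per coding length, and they went different ways. Fbl, the 2'-O-methyltransferase, had 304, 324 and 319 CPM in whole-cell RNA and 420 and 398 CPM on ER ribosomes, with no overlap (log2 ratio 0.35 ± 0.049, SE, adjusted p = 1.99e-07). With Nmd3 and Gnl3 siRNA its ratio was 0.33 and 0.32. Nop56, a scaffold protein of the same particle, was also higher (335, 355 and 330 CPM against 408 and 426 CPM, 0.27 ± 0.05, SE). Nop58, the paralogous scaffold that pairs with it, was lower (351, 346 and 362.5 CPM against 317 and 297 CPM, -0.23 ± 0.053, SE). Each of these 3 was called in the same direction in all 3 siRNA conditions. Rrp9, the U3-specific protein, was called in none, with ratios of 0.029, -0.066 and -0.053. Per kilobase of coding sequence in scramble whole-cell RNA, Fbl was highest of the 51 at 322 ± 10.5 CPM (SD, n = 3), followed by Emg1 at 231 ± 8.1, Nolc1 at 224 ± 5.95 and Nop58 at 219 ± 5.4, whose replicates overlapped. Nop56 came next at 195 ± 7.56. The lowest was Dhx37 at 17.9 ± 1.38, under Rrp12, Utp20, Riok1 and Pdcd11, which all lay between 32.6 and 33.7.

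Among the enzymes that remodel the processome, Bms1, the GTPase of the particle, had 236, 222 and 232 CPM in the scramble whole-cell libraries and only 69.1 and 73.2 CPM in the ER libraries. The groups lay far apart, and the log2 ratio was -1.72 ± 0.29 (SE, adjusted p = 6.79e-04). Its partner Rcl1, which takes part in an early cleavage, was called in none (102 to 114 CPM against 112 and 117 CPM). The helicases ran from Ddx10 (124, 125 and 122 CPM against 68.9 and 67.5 CPM, -0.88 ± 0.12, SE) through Dhx37, which releases U3 (-0.57 ± 0.1), to Ddx47, which was higher in scramble cells (0.18 ± 0.057) but not called with Nmd3 or Gnl3 siRNA. Ddx52 was called in none. Utp14a, the activator of Dhx37, was lower (-0.34 ± 0.061).

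Of the 13 remaining early factors, 9 were lower in every comparison. Utp20, a very large HEAT-repeat protein, had 284, 258 and 278 CPM in whole-cell RNA and 52.9 and 59.3 CPM on ER ribosomes. It was the lowest of all 51, 4.96-fold lower on ER ribosomes (log2 ratio -2.31 ± 0.18, SE, adjusted p = 1.74e-06), with -2.04 and -2.20 in Nmd3 and Gnl3 siRNA cells. Nol10 had 126, 123 and 123 CPM against 49.6 and 48.4 CPM (-1.36 ± 0.22, SE), and Pdcd11, a large RNA-binding protein that serves both subunits, 202, 176 and 185 CPM against 82.3 and 87.3 CPM (-1.17 ± 0.22). Nop14 and its partners Emg1 and Noc4l went different ways. Nop14 was lower (-0.60 ± 0.075), whereas Emg1, a pseudouridine methyltransferase, was higher, with 162, 173 and 171.5 CPM in whole-cell RNA and 217 and 210 CPM on ER ribosomes (0.31 ± 0.055). Noc4l passed only with Nmd3 siRNA (0.24 ± 0.069). Rrp7a was slightly higher in all 3, while Nol6, which binds it, was lower (-0.79 ± 0.11). Nat10, the acetyltransferase of 18S rRNA, was lower at -0.57 ± 0.065.

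The pre-40S factors held 6 lower and 1 higher mRNA of 9 in scramble cells. Tsr1, a GTPase-like factor that blocks early joining of the 60S subunit, had 203, 204 and 202 CPM against 109 and 114 CPM (-0.88 ± 0.066, SE, adjusted p = 1.21e-13). Rrp12, an export factor, had a ratio of -0.83 ± 0.08. The RIO kinases were lower by less: Riok1 at -0.40 ± 0.073, Riok2 at -0.17 ± 0.065 and Riok3 at -0.16 ± 0.061, with Riok2 not called in Nmd3 siRNA cells (adjusted p = 0.0596). Pno1, which guards the cleavage site of Nob1, was lower in all 3 (-0.21 ± 0.068 in scramble cells), but in the Nmd3 comparison it was at -0.12 (adjusted p = 0.0922) without ER Nmd3 replicate 2. Ltv1 was lower with Nmd3 and Gnl3 siRNA (-0.23 and -0.22) and at -0.14 ± 0.063, not called, in scramble cells. Nob1 was called in none, at 113 to 116 CPM in whole-cell RNA and 125 and 122 CPM on ER ribosomes. Bysl, an early-binding factor of this set, was the exception, with 154, 159 and 160 CPM against 213 and 203 CPM (0.38 ± 0.053, SE, adjusted p = 1.62e-07). Of the nucleolar phosphoproteins, Nolc1 was lower in scramble cells (-0.16 ± 0.048) and with Gnl3 siRNA, but not called with Nmd3 siRNA. Tcof1 was called in none (-0.30 ± 0.16 in scramble cells).

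**Figure D3:**
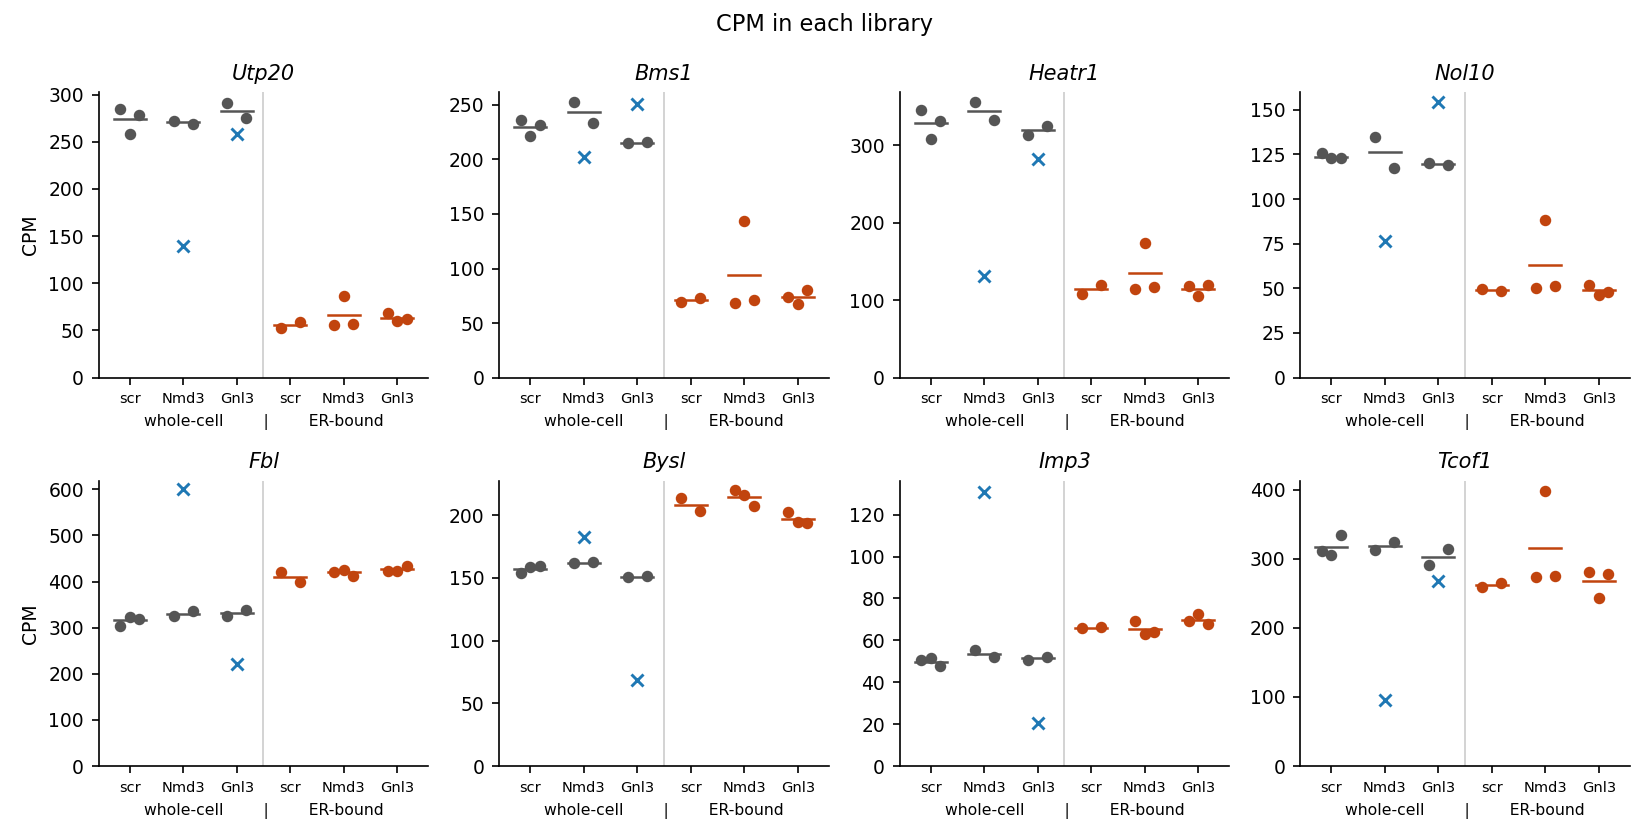
CPM (vertical axis from 0) of 8 genes in each library, with whole-cell libraries in grey, ER libraries in red, bars at the group means, and the 2 libraries excluded by the authors as blue crosses outside the means. For Utp20, Bms1, Heatr1 and Nol10 every ER library lies below every whole-cell library used, and for Fbl, Bysl and Imp3 every ER library lies above; ER Nmd3 replicate 2 is the highest ER point for Utp20, Bms1, Heatr1, Nol10 and Tcof1.

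The order of the 51 followed their coding length. Coding sequences ran from 184 codons (Imp3) to 2789 codons (Utp20), with a median of 622. Across the 51 genes the log2 ratio in scramble cells correlated with log2 of the number of codons at Pearson's r = -0.81. With the number of codons Spearman's rho was -0.80. Without Utp20, Bms1, Heatr1, Nol10 and Pdcd11 (n = 46) these were r = -0.75 and rho = -0.77. Genes of 1 set of libraries are not independent replicates, so these values are descriptive. Across all 14272 coding genes tested the same correlations were -0.49 and -0.53, so the relation with length ran through coding genes at large. With transcript GC content, rho was 0.16 over the 51 genes and 0.31 over all coding genes.

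Set against other coding genes of like length, the 51 mostly lay below the middle. Of the 12 with 250 to under 500 codons, 9 lay below the median of the other genes of that class, which was 0.16. The 17 with 500 to under 750 codons had a median of -0.17, against -0.092 for 2985 other genes. The 10 with 750 to under 1000 codons had a median of -0.56 against -0.27 for 1484 other genes, and 9 of the 10 were called lower, compared with 47.5% of the others. The 7 with 1000 to under 2000 codons had a median of -0.79 against -0.58, where 4 of 7 lay below. After a smooth trend with log coding length over all genes had been taken off, 41 of the 51 ratios in scramble cells were negative (43 with Nmd3 and 40 with Gnl3 siRNA), and their median moved from -0.30 to -0.18. Nol10 was then the lowest (-1.22), followed by Utp20 (-1.16) and Bms1 (-1.14), at percentiles 1.7, 1.9 and 2.0 of all coding genes. Nol10 has a coding sequence of only 687 codons, near the middle of the 51. Nop56 and Tcof1 were highest above the trend, both at 0.32. Of the other genes called higher in all 3 comparisons, Bysl (0.27) and Fbl (0.12) also lay above it. Imp3 (0.01) and Emg1 (0.0) lay on the trend and Rrp7a (-0.12) below it.

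**Figure D4:**
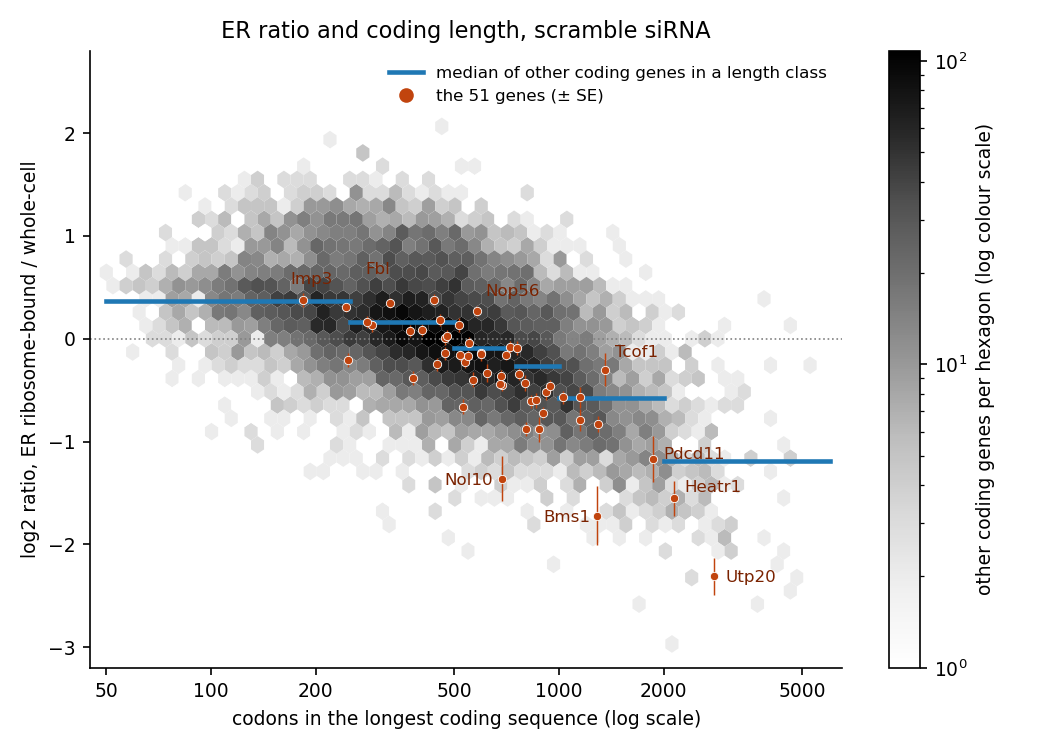
Log2 ratio of ER ribosome-bound to whole-cell RNA in scramble cells (vertical axis) against codons in the longest coding sequence (horizontal, log scale), with other coding genes as grey hexagons, their median in each length class as blue lines, and the 51 genes in red (± SE). Most red points lie at or below the blue line of their class, and Nol10, Bms1 and Utp20 lie furthest below it.

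Neighbouring gene lists in the same scramble comparison did not all go this way. A further 26 small-subunit factors outside the 51, with a median of 319 codons, had 14 higher and 7 lower and a median of 0.18; among them Esf1 (-1.82) and Mybbp1a (-0.86) were lowest and Tsr3 (0.56) was the highest. The 51 factors of 60S assembly, with a median of 588 codons, had 10 higher and 24 lower (median -0.14), led by Mdn1 at -2.98. RNA polymerase I and its factors had 2 higher and 8 lower of 15 (median -0.19), with Polr1a at -1.49. The 34 small-subunit ribosomal proteins, with a median of 151 codons, had 33 higher and 1 lower (median 0.45), and all 12 ER chaperones were higher (median 0.98). The exosome list had 4 higher and 3 lower of 13 tested, and the box C/D assembly list 1 and 1 of 8. Pluripotency markers had 7 higher and 1 lower of 10, fibroblast markers 2 higher and 0 lower of 6 tested, and primitive endoderm markers 0 higher and 3 lower of 7 tested.

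Nmd3 and Gnl3 siRNA were each compared with scramble siRNA. In whole-cell RNA edgeR's quasi-likelihood test called 0 of the 51 with Nmd3 siRNA and 0 with Gnl3 siRNA, where it called 0.166% and 0.812% of all genes. At an unadjusted p under 0.05 there were 7 and 0, where 9.69% and 8.5% of all genes passed, and DESeq2 called 0 in both. The 7 became 18 without whole-cell Nmd3 replicate 3 and 2 to 6 without each of the other libraries compared, lowest without scramble replicate 3. The shares of all genes at that cut were not computed for any fit that left out a library. Without Nmd3 replicate 3 the Nmd3 group held 1 whole-cell library. The 51 changes lay between -0.24 and 0.18 with Nmd3 siRNA (median 0.058) and between -0.15 and 0.10 with Gnl3 siRNA (median -0.019), with a median SE of 0.061 in both. The most negative was Dhx37 in each: 60.2, 57.8 and 66.9 CPM in scramble cells, 52.7 and 52.5 CPM with Nmd3 siRNA and 55.1 and 55.9 CPM with Gnl3 siRNA. Its log2 change was -0.24 ± 0.074 (SE, edgeR adjusted p = 0.25) and -0.15 ± 0.074 (adjusted p = 0.587). Fbl changed by 0.06 ± 0.056 and 0.072 ± 0.056, and Utp20 by -0.022 ± 0.056 and 0.052 ± 0.056, neither called. Between Nmd3 and Gnl3 siRNA 0 were called, where 0.212% of all genes were (5 at an unadjusted p under 0.05 against 9.29% of all genes, 0 by DESeq2). The 5 became 18 without Nmd3 replicate 3, 3 without Nmd3 replicate 1 and 1 without Gnl3 replicate 2, and the lowest edgeR adjusted p was 0.36, for Bms1.

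On ER ribosomes 0 of 51 were called with either siRNA by edgeR, against 1.17% of all genes for Nmd3 and 2.68% for Gnl3; 2 and 6 had an unadjusted p under 0.05, where 11.6% and 14.3% of all genes did. Leaving out a library moved the 2 to between 1 (without scramble replicate 2) and 6 (without Nmd3 replicate 3). It moved the 6 to between 0 (without Gnl3 replicate 3) and 12 (without Nmd3 replicate 2, through the shared spread). The shares of all genes in those fits were not computed. The changes had medians of 0.044 and -0.018, and their SE had medians of 0.06 and 0.059. Nop14 had the lowest adjusted p after Nmd3 siRNA: it stood at 99.9 and 96.5 CPM in scramble cells, at 112, 142 and 115 CPM with Nmd3 siRNA, where each replicate lay above both scramble ones, and at 97.2, 95.7 and 99.3 CPM with Gnl3 siRNA. Its change was 0.33 ± 0.1 (SE, edgeR adjusted p = 0.195), and DESeq2 called it (0.34, adjusted p = 0.0217). It was the only 1 of the 51 that DESeq2 called there, when DESeq2 called 192 of 29579 genes in all. Bms1 had the largest change, 0.43 ± 0.38, with 144 CPM in replicate 2, 68 and 71.2 CPM in the other Nmd3 replicates and 69.1 and 73.2 CPM in scramble cells. Without that replicate edgeR called 3 genes with Nmd3 siRNA: Pno1 rose by 0.27, Nop14 rose by 0.20 and Dhx37 fell by 0.33 on the log2 scale, when 366 genes were called in all. With Gnl3 siRNA the lowest adjusted p was that of Nop56 (-0.11 ± 0.041, adjusted p = 0.183), all 51 changes lay within 0.2 of 0, and DESeq2 called 0.

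Nmd3 and Gnl3 siRNA compared directly on ER ribosomes gave 0 calls of 51 by edgeR, against 2.19% of all genes. At an unadjusted p under 0.05 there were 10, against 13.5% of all genes. Leaving out a library moved the 10 to between 5 (without Gnl3 replicate 2) and 13 (without Nmd3 replicate 2), with the shares of all genes not computed. DESeq2 called Nop14 and Ddx10, when it called 318 of 29579 genes in all. Riok2 came closest in edgeR, at 99.2, 94.9 and 104 CPM with Nmd3 siRNA and 91.7, 87.8 and 88.3 CPM with Gnl3 siRNA, which did not overlap (0.17 ± 0.05, SE, adjusted p = 0.0719). Nop14 followed at 0.36 ± 0.088 (adjusted p = 0.08). Without ER Nmd3 replicate 2, edgeR called 4: Nop14 (0.23), Ddx10 (0.19) and Riok2 (0.19) higher and Dhx37 (-0.32) lower with Nmd3 siRNA, when 703 genes were called in all. Both knockdowns share the scramble libraries, so their values are given side by side only.

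**Figure D5:**
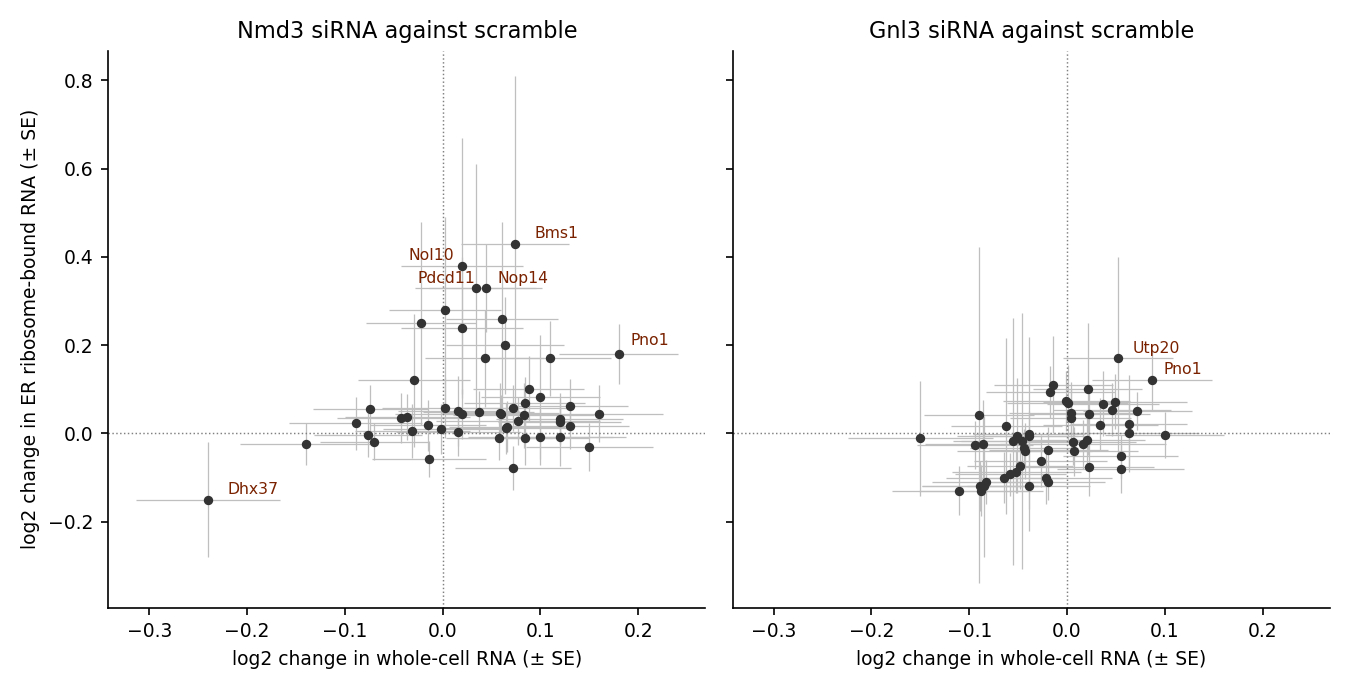
Log2 change of the 51 genes with Nmd3 (left) and Gnl3 (right) siRNA against scramble, in whole-cell RNA (horizontal axis) and ER ribosome-bound RNA (vertical axis), each ± SE. No gene passed an adjusted p under 0.05; with Nmd3 siRNA Bms1 reaches 0.43 on the vertical axis with an SE of 0.38, and Dhx37 lies lowest on both axes.

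Whether a knockdown moved the ratio of ER ribosome-bound to whole-cell RNA was tested as an interaction. For both siRNAs edgeR called 0 of the 51 and 0% of all genes; 2 (Nmd3) and 0 (Gnl3) of the 51 had an unadjusted p under 0.05, against 5.9% and 3.55% of all genes, and DESeq2 called 0 of the 51. Leaving out a library gave 0 to 8 for Nmd3, the highest without whole-cell Nmd3 replicate 3. The median SE of these differences was 0.091 on the log2 scale. For the fits that left out a library the shares of all genes at that cut were not computed. Over the 3 siRNAs the ratio of Bms1 and that of Nol10 each varied by 0.36, which rested on ER Nmd3 replicate 2 for Nol10: without it, Nol10 stood at -1.36, -1.33 and -1.33 and Bms1 at -1.72, -1.82 and -1.58 with scramble, Nmd3 and Gnl3 siRNA. Leaving out whole-cell Nmd3 replicate 3, which leaves 1 whole-cell Nmd3 library assumed to vary like the other groups, brought 1 call, Utp4 (0.30), when 304 genes were called in all. The same setting gave 4 calls in whole-cell Nmd3 against scramble (Riok3, Wdr3 and Krr1 higher, Utp4 lower), when 1024 genes were called in all.

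Several of these values may hold counts of a neighbour. The strand setting of counting is not given in the sources used here, and 20 of the 51 genes overlap an exon of a gene on the opposite strand in GENCODE M21, among them Heatr1 (Lgals8), Pdcd11 (Calhm2), Tsr1 (Srr), Nop56 (Idh3b), Bysl (Ccnd3), Emg1 (Lpcat3), Rrp7a (Serhl), Pno1 (Wdr92) and Nop14 (Gm15522). Utp20, Bms1, Nol10, Imp3 and Fbl have no such neighbour there.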

How the data were processed

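Each deposited file holds the raw gene counts of 1 library, made by the authors with STAR 2.7.9a and HTSeq 0.11.2 on GRCm39, with DESeq2 named without a version, per the submitters' processing notes. The annotation release, strand setting and read filters are not given in the sources used here. Lines that name no gene were left out; no-feature entries were 46.6% to 48.3% of a library, non-unique ones 5.11% to 10.2% and ambiguous ones 0.36% to 0.57%. Gene counts totalled 15.2 to 29.9 M per library; the errors given are of the spread between replicates, which includes counting error.

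Symbols, coding lengths and strand overlaps came from GENCODE M21 (GRCm38), so no coordinates are given. Tests used edgeR 4.0.16 in R 4.3.3 (filterByExpr, TMM scaling, robust quasi-likelihood fit) in 3 fits: 15 libraries and 18271 genes for ER against whole-cell RNA and the interactions, 8 ER libraries and 17632 genes, and 7 whole-cell libraries and 17490 genes for the knockdowns. Benjamini-Hochberg adjustment ran over all genes of a fit, and SE is the absolute log2 change divided by the square root of F. CPM values are counts per M gene counts, and the length trend is a loess fit with span 0.5. The scripts were tested on simulated data.

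The 51 genes and the 10 other lists were chosen with earlier results of these data known. Genes were named by a fixed rule: all 51 may be named, with the 8 largest rises and falls, the box C/D proteins, the longest and the pre-40S factors in each comparison, and at most 3 genes of another list. The 10 fibroblast and feeder markers, Hspa5 and Calr fall outside it and were named after their values were seen. Each lysate gave both fractions, so equal numbers within an siRNA are 1 culture and pair by design; their deviations correlated across genes at 0.09 (scramble), -0.016 (Nmd3) and 0.083 (Gnl3). The main fits had no block. Replicates are named biological in the labels; if they are not separate cultures, p-values measure technical spread only. Alternatives were DESeq2 1.42.0, other scalings, no filter on low counts, replicate blocks, other library sets and leaving out each library.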

Additional observations from a re-analysis of the deposited data

Results flagged for a closer look

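The 2 whole-cell libraries that the authors left out hold values in no comparison above. In Nmd3 siRNA whole-cell replicate 2, 16 of the 51 genes lay above all 3 scramble whole-cell libraries and 33 lay below; Imp3 was highest, at a log2 ratio of 1.39 to the scramble mean, and Tcof1 lowest at -1.74. In Gnl3 siRNA whole-cell replicate 3, 24 lay above all 3 and 26 below, with Nop14 highest at 0.85 and Rrp9 lowest at -1.64. Whole-cell libraries that were kept also left the scramble range. Nmd3 replicate 1 had 32 genes above and 9 below, and Nmd3 replicate 3 had 21 above and 8 below. The shares over all genes were not computed. Across the 51 genes the ratio correlated with codons at rho = -0.65 in the excluded Nmd3 library and -0.05 in the excluded Gnl3 library. With transcript GC content the values were -0.20 and -0.75. Mitochondrial RNA made up 0.769% of the Nmd3 library and 6.14% of the Gnl3 library (other whole-cell libraries: 1.15% to 2.03%). Their part in these ratios was not tested.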

How the results depend on the processing

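The counts of genes called in ER against whole-cell RNA held within 1.5 times of 39 under DESeq2, other scalings, no filter on low counts, fitting only the groups compared (44 in scramble, 32 with Nmd3 and 41 with Gnl3 siRNA) and leaving out each library (33 to 42, 34 to 40 and 33 to 40). Fitting only the groups compared called 9859 of 17292 genes in scramble, 7710 of 17258 with Nmd3 and 9341 of 17326 with Gnl3 siRNA. Without ER Nmd3 replicate 2 these comparisons called 9527, 8822 and 9143 of 18166 genes, and the main fit 9197, 9152 and 8795 of 18271. With the culture as a replicate block, which pairs the fractions, the counts were 40, 37 and 40, when 8650, 8543 and 8412 of all genes were called. Adding the 2 excluded libraries cut them to 12, 13 and 21, all lower, when 2353, 2819 and 4540 of all genes were called. In the Nmd3 comparison it also turned Imp3 to -0.55, Fbl to -0.24, Nop56 to -0.046 and Emg1 to -0.57.

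The counts of 0 after knockdown follow, with all genes called in brackets. For Nmd3 against scramble on ER ribosomes they became 1 under DESeq2 (192 of 29579), with no filter (407 of 29579) and with all 15 libraries in 1 fit (178 of 18271). They became 0 to 3 leaving out an Nmd3 replicate (210 to 366 genes). For Nmd3 against Gnl3 on ER ribosomes they became 2 under DESeq2 (318 of 29579) and with no filter (586 of 29579). They became 1 with library totals only (417 of 17632), in 1 fit of all 15 (354 of 18271) and with the replicate number as a block (280 of 17632). Leaving out a library gave 0 to 4 there (159 to 703 genes). For Nmd3 against scramble in whole-cell RNA, leaving out a scramble replicate gave 0 (10 to 18 genes). For the Nmd3 interaction, leaving out a whole-cell scramble or ER Nmd3 replicate gave 0 (0 to 2 genes). Fits that leave 1 library in a group are not counted here for whole-cell RNA or this interaction. In Nmd3 against Gnl3 without whole-cell Nmd3 replicate 3, Krr1 was at 0.28, Bms1 at 0.20 and Utp4 at -0.25. The block changed no other count by over 1.5 times. Between siRNAs, libraries share only a number: deviations of same-numbered libraries correlated between -0.16 and 0.048. With 2 or 3 libraries a group, the errors of long mRNAs on ER ribosomes differ with and without ER Nmd3 replicate 2.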
